A study of Arabidopsis thaliana with 6 samples.

Results

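HAT2 (AT5G47370, on chromosome 5) was the only endogenous homeobox gene that the naming rule found among the probe sets that could be named here. The rule takes probe sets that report a single gene whose RefSeq symbol is HB, ATHB, HAT, HDG, WOX, KNAT or BLH followed by digits. It found 1 probe set out of 22746 that were tested. RefSeq holds 83 genes with such a symbol, and the other 82 had no probe set that could be named here and were not analysed. Levels were read from Affymetrix GeneChip arrays of 10-day-old seedlings of the Columbia ecotype, grown on MS medium without stress with 14 h of light a day. WT seedlings (3 arrays) were compared with seedlings that over-express the rice homeobox gene OsHOX24 (3 arrays). In the over-expression seedlings, called 35S::OsHOX24, the constitutive CaMV 35S promoter drives the rice gene. These plants were of a single homozygous transgenic line, and the replicates of each genotype were biological ones. The study chose this line for its relatively higher susceptibility to stress. By the study's real-time PCR, it had the lowest transgene expression of the homozygous lines compared. The level of the rice transgene was not analysed here.

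Homeobox proteins are transcription factors that contact DNA through a homeodomain. In plants, the HD-ZIP superclass joins the homeodomain to a leucine zipper, through which the proteins pair before binding DNA, and it is divided into subfamilies I to IV. OsHOX24 belongs to subfamily I, many of whose genes respond to water deficit and abscisic acid. HAT2 belongs to subfamily II, whose proteins mostly repress transcription and act in shade avoidance, auxin response and leaf polarity. HAT2 itself is known in Arabidopsis as a gene that auxin induces within a short time. The arrays therefore show whether the level of a subfamily II gene of the plant differed when a subfamily I gene of rice was over-expressed.

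All arrays were scaled by the authors to the same average, with a trimmed mean of the linear signals of 500.05 to 500.06. Array medians ranged from 7.24 to 7.42 (log2). The GAPDH control, whose 3' signal minus its 5' signal grows as 5' ends are lost, gave a difference that ranged from 1.63 to 4.80 (log2). Pearson's r between arrays, taken over all probe sets, was 0.928 to 0.947 within a genotype and 0.929 to 0.955 between genotypes, so arrays of the same genotype did not stand together. The leaf gene RCA, which encodes rubisco activase, had 14.28 to 14.74 (log2) in all arrays. The root hair expansin gene EXPA7 ranged from 2.86 to 5.47 (log2) and AT5G17820, a gene from the root list, from 4.76 to 8.06. Of the tissue lists, 1 of 5 leaf genes and 2 of 5 root genes could be named, and the flower and seed genes were not analysed here. With so few arrays, each difference below has a wide interval.

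HAT2 was read at a medium signal in seedlings of both genotypes, and its level did not separate them. In WT, the HAT2 signal was 8.65 (log2) in replicate 1, 8.75 in replicate 2 and 7.78 in replicate 3. In 35S::OsHOX24, it was 8.79 in replicate 1, 7.67 in replicate 2 and 9.05 in replicate 3. Each genotype thus held 2 arrays with a higher and 1 with a lower HAT2 signal, and the ranges of the genotypes overlapped. On the linear scale, the lowest HAT2 signal was 203 and the highest 529, both in 35S::OsHOX24. HAT2 lay between the 54.1 and the 74.8 percentile of all probe sets across the arrays, above the middle in each of them. A signal depends on the probes as well as on the transcript, so this place says how bright the HAT2 probe set was and does not rank the gene against others.

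**Figure D1:**
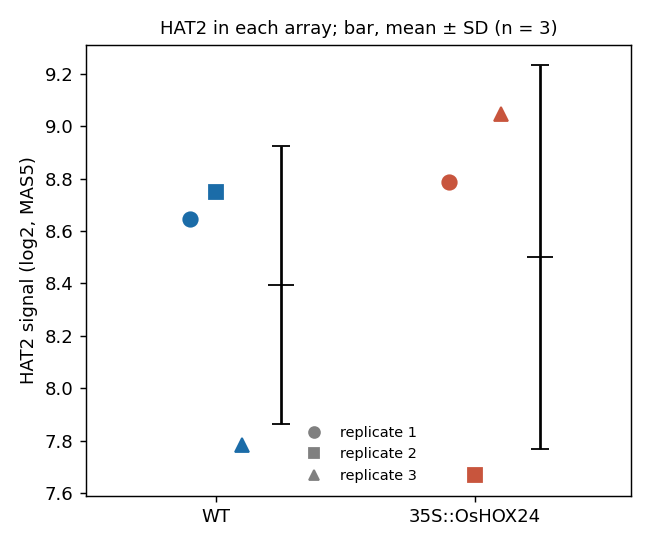
HAT2 signal (vertical axis, log2, MAS5) in each array of WT and 35S::OsHOX24 (horizontal axis), with the replicate number given by the marker and the mean ± SD (n = 3) by the bar beside the points. The lowest arrays, WT replicate 3 at 7.78 and 35S::OsHOX24 replicate 2 at 7.67, belong to different genotypes.

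WT arrays had a mean HAT2 signal of 8.39 ± 0.53 (log2, SD, n = 3), and 35S::OsHOX24 arrays had a mean of 8.50 ± 0.73 (SD, n = 3). The log2 difference between 35S::OsHOX24 and WT was 0.11 with a standard error of 0.47, which is 1.08-fold and smaller than either SD. With limma, which fits each probe set and borrows from the spread of all of them, the unadjusted p was 0.826 and the adjusted p was 1. A 2-sided exact permutation test of the HAT2 values gave p = 0.7, where 3 arrays against 3 cannot go below 0.1. The 95% interval of the log2 difference ran from -1.03 to 1.25, that is, from 2.05-fold lower to 2.38-fold higher in 35S::OsHOX24. Changes of HAT2 within this interval were thus not excluded by these arrays, and equal levels are not shown. In a whole seedling, a lower signal can come from fewer cells that express a gene or from less RNA per cell, and these cannot be told apart.

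At the thresholds of the study, at least 2-fold and an unadjusted p of at most 0.05, HAT2 was not called. In the same limma fit, 0.914% of the 22746 probe sets were higher in 35S::OsHOX24 and 1.61% were lower at these thresholds. HAT2 also had overlapping values, whereas 7.17% of all probe sets had no overlap between the genotypes. No probe set of the array passed an adjusted p of 0.05 (0% of those tested), either with limma or with the methods' t-test. Before adjustment, p was under 0.05 for 785 probe sets in the limma fit and for 798 by the methods' t-test. The median log2 difference over all probe sets was -0.03 after the scaling of each array to a common average. Such scaling removes shifts shared by all signals of an array, though the array medians still ranged from 7.24 to 7.42 (log2).

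The sign of the HAT2 difference depended on single arrays. Without WT replicate 3, the log2 difference was -0.20, and without 35S::OsHOX24 replicate 3 it was -0.17. Without 35S::OsHOX24 replicate 2, the array with the lowest HAT2 signal, it was 0.52 and the remaining arrays no longer overlapped, yet the unadjusted p with limma was 0.243. HAT2 thus has no direction in these arrays.

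**Figure D2:**
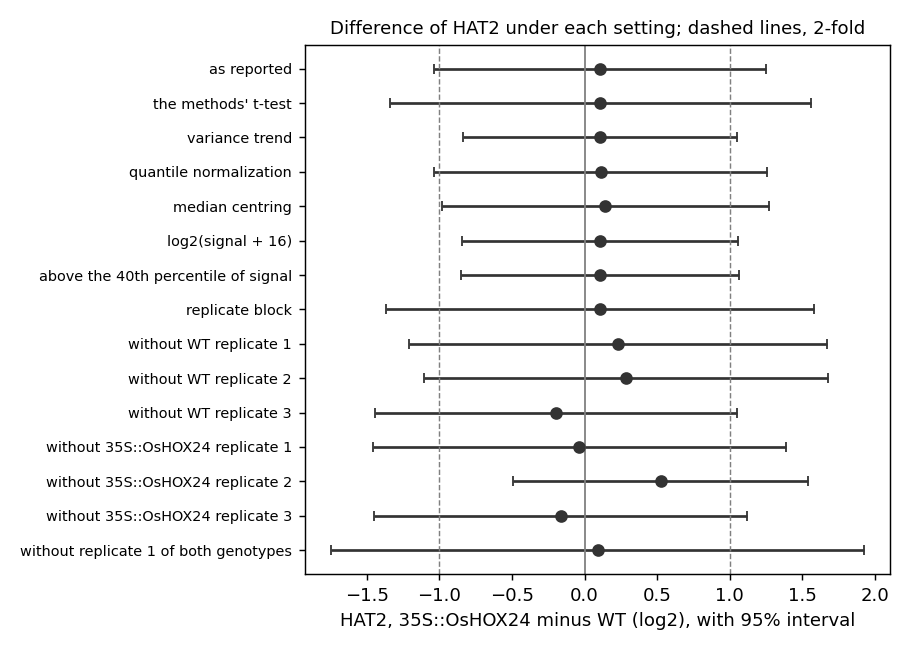
Log2 difference of HAT2 between 35S::OsHOX24 and WT (horizontal axis) under each processing setting (vertical axis), with points for the estimate and bars for the 95% interval. The estimate is 0.11 as reported and lies between -0.20 and 0.52 when 1 array is left out, and every interval includes 0.

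The spread of HAT2 between replicates was wide for its brightness. The SD within genotypes, pooled over both, was 0.64 (log2), and the median was 0.32 over the 3320 other probe sets whose mean signal lay within 0.5 (log2) of that of HAT2. Of these probe sets, 89.5% had a smaller SD than HAT2. A wide spread was not particular to HAT2 among the homeobox genes named below. Of the probe sets of like signal to each, 84.1% had a smaller SD than PHV and 81.6% than LD. The share was 79.9% for AT4G03090 and 79.2% for HAT3.1. The difference of HAT2 between genotypes was small beside the same probe sets, 37.0% of which had a smaller absolute difference. HAT2 therefore varied more than most probe sets of like signal between arrays of 1 genotype, and not more than most between genotypes.

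**Figure D3:**
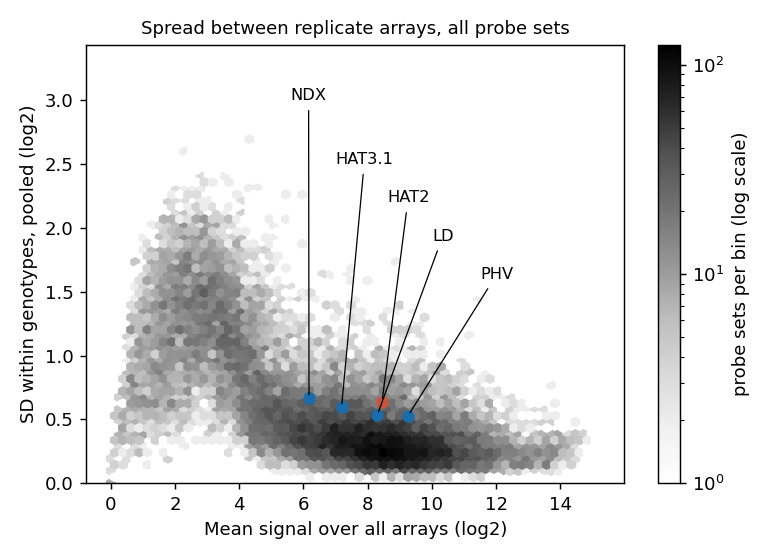
SD within genotypes, pooled over WT and 35S::OsHOX24 (vertical axis, log2), against the mean signal over all 6 arrays (horizontal axis, log2) for 22746 probe sets, with the number of probe sets per bin in grey and the named homeobox genes as points. HAT2 (red), at an SD of 0.64, lies above the dense band of probe sets of like signal, where the median SD is 0.32. The other named homeobox genes also have an SD above the median for their signal.

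The arrays fell into a higher and a lower set for HAT2. Its signals in WT replicates 1 and 2 and in 35S::OsHOX24 replicates 1 and 3 lay within 0.40 (log2) of each other. Below them came a gap of 0.86 (log2), and then WT replicate 3 and 35S::OsHOX24 replicate 2, which differed by 0.12. From the highest to the lowest array, HAT2 spanned 2.60-fold. The same 2 arrays were also the lowest for 10.2% of all probe sets and the highest for 12.5%, so this order of arrays was not particular to HAT2. The GAPDH 3' minus 5' difference was 4.80 (log2) in WT replicate 3 and 3.63 in 35S::OsHOX24 replicate 2, the largest values of the series, and 1.63 to 3.29 in the other arrays. The root gene AT5G17820 was 5.71 and 5.16 (log2) in these 2 arrays. It was lower still, 4.76, in WT replicate 1, where HAT2 was high, and 6.55 to 8.06 in the remaining arrays. The other root gene, EXPA7, was 3.28 (log2) in WT replicate 3 and 4.70 in 35S::OsHOX24 replicate 2. Among the arrays high for HAT2, EXPA7 was 2.86 in WT replicate 1 and 5.47 in WT replicate 2. In 35S::OsHOX24 replicates 1 and 3, it was 4.69 and 5.45. The part of RNA quality and of root content in the HAT2 values was not tested.

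HAT2 was set beside the other listed homeobox genes whose probe sets could be named here, all of which stand outside the symbol rule. PHV came from the list of loci by subfamily and the others from a list added later, and the choice to print the values of all of them was made after those values were seen. Of 97 homeobox loci listed by subfamily, 2 could be named, HAT2 and PHV, a subfamily III gene that sets the upper side of leaves. Of 9 further genes with a homeodomain of other types, 3 could be named: HAT3.1, whose protein also carries a PHD finger, LD (LUMINIDEPENDENS), which promotes flowering, and AT4G03090, known as NDX. None of these 4 genes was past the thresholds of the study with limma. Genes for known partners of homeobox proteins, 4 of the little zipper family and 3 of the ovate family, were not analysed here. PHV had log2 signals of 9.35, 8.77 and 9.46 in WT replicates 1 to 3 and of 9.36, 9.95 and 8.65 in 35S::OsHOX24 replicates 1 to 3. PHV was thus highest in the 2 arrays where HAT2 was lowest. Its log2 difference between the genotypes was 0.13 (standard error 0.40), which is smaller than its pooled SD within genotypes of 0.53.

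HAT3.1 was likewise highest where HAT2 was lowest, at 7.98 (log2) in WT replicate 3 and 7.67 in 35S::OsHOX24 replicate 2, against 6.33 to 7.15 in the other arrays. LD and AT4G03090 were highest in 35S::OsHOX24 replicate 2, at 9.05 and 7.11 (log2), but not in WT replicate 3. HAT2 was therefore the only one of the 5 named homeobox genes with its lowest signal in 35S::OsHOX24 replicate 2. The log2 differences between the genotypes were -0.42 for HAT3.1 (standard error 0.44), 0.09 for LD (0.40) and -0.03 for AT4G03090 (0.48).

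**Figure D4:**
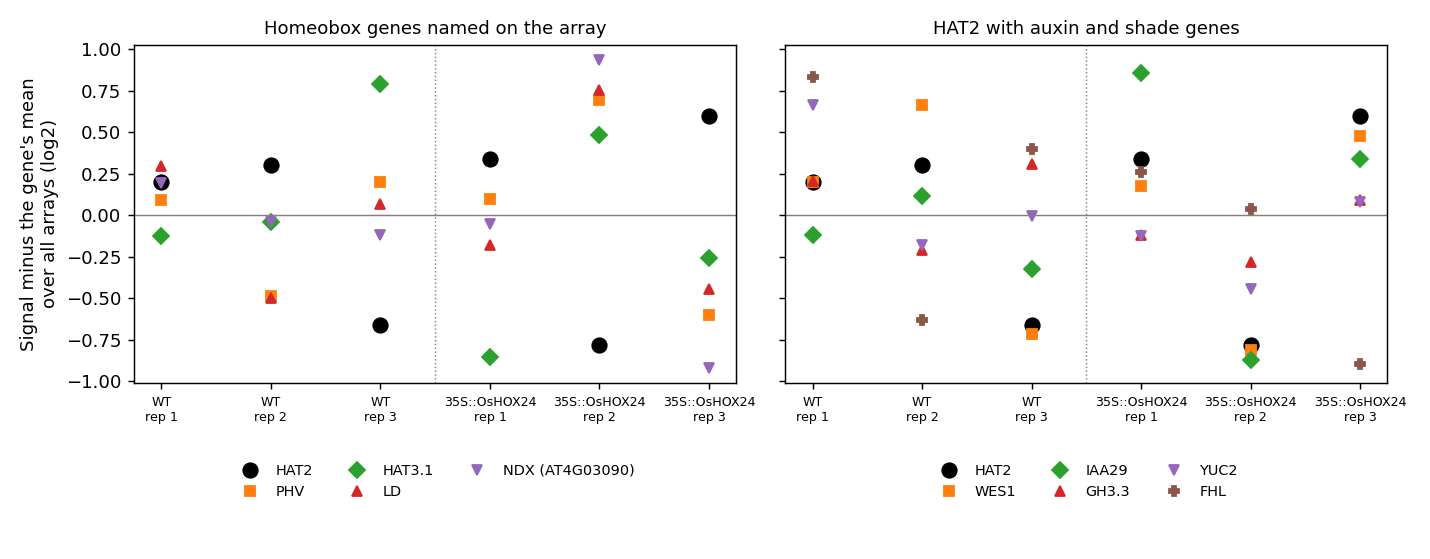
Signal minus the mean of each gene over all 6 arrays (vertical axis, log2) in each array (horizontal axis), for the 5 named homeobox genes on the left and for HAT2 with 5 auxin and shade genes on the right; the dotted line parts WT from 35S::OsHOX24. In WT replicate 3 and 35S::OsHOX24 replicate 2, HAT2, WES1 and IAA29 are at their lowest and PHV and HAT3.1 at their highest.

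HAT2 was also set beside genes of the pathway it acts in. Of 48 listed genes of shade and auxin response, auxin synthesis, brassinosteroid signalling and co-repression, 5 could be named, and none of them was past the thresholds of the study with limma. WES1, which encodes an enzyme of the GH3 family that joins auxin to amino acids and is induced by auxin, had log2 signals of 9.35, 9.81 and 8.43 in WT replicates 1 to 3. In 35S::OsHOX24 replicates 1 to 3, WES1 had 9.32, 8.33 and 9.62. The 2 arrays lowest for WES1 were those lowest for HAT2, 1 in each genotype. IAA29, a repressor of auxin response that is itself induced by auxin and shade, was also lowest there, at 5.50 and 4.95 (log2), against 5.70 to 6.68 in the other arrays. GH3.3, a second gene of the GH3 family, did not share this order, with 9.71 in WT replicate 3, its highest signal, and 9.13 in 35S::OsHOX24 replicate 2, its lowest. YUC2, for an enzyme of auxin synthesis, and FHL, which carries phytochrome A into the nucleus, did not have their lowest signals in both arrays either. Of the 5 genes, 2 thus shared the low arrays of HAT2, where 10.2% of all probe sets did. The list was chosen late and few of its genes could be named, so this share was not tested. IAA29 was also dim, between the 28.3 and the 43.2 percentile of all probe sets across the arrays.

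Between the genotypes, the values of each of these genes overlapped, and the adjusted p with limma was 1 for each of them. The log2 differences were -0.10 for WES1 (standard error 0.50), 0.22 for IAA29 (0.47), -0.21 for GH3.3 (0.25), -0.32 for YUC2 (0.31) and -0.40 for FHL (0.50).

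The genes whose deviations over the arrays were nearest in size to those of HAT2 were sought among 6030 other probe sets. These had a single gene and a mean signal above the median. Likeness was measured as the root mean square difference between deviations from the mean of each gene over the 6 arrays, a rule set after the HAT2 values were seen, and no test was made. The nearest were AT5G03700 at 0.13 (log2), AT3G53990 at 0.14, the tetraspanin gene TET2 at 0.15, AT4G29020 at 0.16 and AT3G55960 at 0.17. For scale, a gene with the same signal in all arrays would lie at 0.52 from HAT2, and 28.1% of the probe sets were nearer than that. AT3G53990, for instance, had 11.11 (log2) in WT replicate 3 and 11.07 in 35S::OsHOX24 replicate 2, and 11.73 to 12.11 in the other arrays. Its high and low arrays were those of HAT2, which its choice by nearness to HAT2 made almost certain in advance.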

How the data were processed

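The authors deposited log2 values of MAS5 signals, 1 per probe set and array, already scaled per array. The MAS5 version is not given in the sources used here. The series matrix held 6 arrays, all assigned to WT or 35S::OsHOX24 from the sample titles. After leaving out 64 control probe sets, 22746 were fitted in R 4.3.3 by lmFit and eBayes of limma 3.58.1, without a trend or covariates, with Benjamini-Hochberg adjustment over all of them and no filter. The methods' t-test (Student) was an alternative. The other alternatives were a variance trend, quantile normalization, median centring, log2(signal + 16), a filter at the 40th percentile of signal, the replicate number as a block, and leaving out arrays. The script was tested on simulated data.

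Names came from a platform table updated through gene identifiers with RefSeq (TAIR10.1), which matched 13436 of 13513 probe sets with a single gene. A further 503 probe sets report several genes, and 8730 could not be named. No sequence or coordinate is printed, because no sequence table was used and the array values come with no genome build; TAIR10.1 served only for names and the chromosome. Values per array were given for members past the study's thresholds, for members without overlap and above the median signal, and for the brightest and the lowest-p probe set of each subfamily, which left HAT2. The symbol rule, the lists and the tests were chosen with earlier results of these data known; the list of pathway genes, the other homeodomain genes and the measure of likeness were chosen later.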

Additional observations from a re-analysis of the deposited data

How the results depend on the processing

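HAT2 was not past the study's thresholds under any of the 14 alternatives. Leaving out 1 array at a time, its log2 difference ranged from -0.20 (without WT replicate 3) to 0.52 (without 35S::OsHOX24 replicate 2), with the sign turned also without 35S::OsHOX24 replicate 1 (-0.04) or replicate 3 (-0.17). The count of homeobox probe sets with no overlap ranged from 0 to 1, the 1 being HAT2 without 35S::OsHOX24 replicate 2, where fewer arrays are compared. Under the other alternatives the difference stayed positive, between 0.09 and 0.14, the ends being without replicate 1 of both genotypes and with median centring.

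With the replicate number as a block, the log2 difference of HAT2 was 0.11 (standard error 0.54), and 259 probe sets were higher and 419 lower. The deviations of same-numbered arrays correlated at 0.11, -0.20 and -0.18 for replicates 1 to 3. Replicate 1 of each genotype was nearest to its own number. WT replicate 2 was nearest to over-expression replicate 3 (0.29), and WT replicate 3 to over-expression replicate 2 (0.18). The first of these pairs was high for HAT2 and the second low. Whether arrays of the same number share more than that number was not tested.

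Over all probe sets, 208 were higher and 367 lower at the study's thresholds with limma. The counts were 112 and 180 with the methods' t-test, 29 and 85 with log2(signal + 16), and 17 and 40 above the 40th percentile of signal. Without 1 array, they ranged from 220 to 316 higher (316 without WT replicate 1) and from 347 to 494 lower. Without replicate 1 of both genotypes, 324 were higher and 405 lower. Quantile normalization gave 264 higher and 303 lower, so the share of higher calls moved from 36.2% to 46.6%. The cause of these changes was not tested. Detection calls, which would set signal against background, were not analysed here.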
